A study of Mus musculus with 6 samples.

Results

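Matrix metalloproteinases were followed in mouse embryonic fibroblasts with and without PME-1, the product of Ppme1, an enzyme that demethylates the catalytic C subunit of the phosphatase PP2A. The genes are the 10 listed by symbol, Mmp2, Mmp3, Mmp9, Mmp10, Mmp11, Mmp13, Mmp14, Mmp16, Mmp19 and Mmp23, out of 53762 gene symbols in the count files, and all 10 were found. RNA was sequenced from immortalized fibroblasts kept in high-glucose DMEM with 10% fetal bovine serum and taken 24 hours after seeding, in 3 libraries of PME-1 knockout cells (KO 1 to KO 3) and 3 of wild-type cells (WT 1 to WT 3). The labels do not say how the knockout was made, how many clones or embryos the lines came from, or whether the libraries of a group were separate cultures, and p-values therefore reflect sample-to-sample spread alone, which could be technical.

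Matrix metalloproteinases are zinc-dependent proteases that cut collagens, proteoglycans and other proteins of the extracellular matrix and the cell surface. They are made as inactive precursors in which a propeptide covers the catalytic zinc, and they are blocked by the tissue inhibitors of metalloproteinases (TIMPs). Fibroblasts make several of them. Membrane-bound MMP14 together with TIMP2 activates the precursor of MMP2 at the cell surface.

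Read totals ranged from 34450993 to 44116310 per library, so that 3 counts corresponded to 0.0689 to 0.0881 CPM (read counts scaled to library size with TMM factors). Ppme1 stood at 18.2, 14.9 and 18.9 CPM in the KO libraries, against 78.4, 80.7 and 86.6 CPM in the WT libraries, so the transcript was reduced in every KO library and still present. Xist, the RNA of the inactive X chromosome, stood at 0.31, 0.258 and 0.117 CPM in the KO libraries and at 490.0, 370 and 433 CPM in the WT libraries, and the Y-linked Ddx3y at 58.7, 71.8 and 58.4 CPM in the KO libraries and at 0 counts in every WT library. The genotype therefore cannot be told apart from this difference in sex-linked transcripts, in any comparison. KO 1 and WT 1 stood apart from the other libraries of their own groups. Over the 15223 genes tested, the median absolute log2 difference was 0.38 between KO 1 and the mean of KO 2 and KO 3 and 0.34 between WT 1 and the mean of WT 2 and WT 3, against 0.13 between KO 2 and KO 3 and 0.13 between WT 2 and WT 3. Results that rest on KO 1 and WT 1 are given with and without them. Of the 10 fibroblast markers, Vim, Col1a1 and Col1a2 were at 2199 CPM or more in every library, whereas Thy1, Pdgfra and Lum were low. By edgeR 3 of the 10 were called lower in KO, namely Col1a1, Pdgfrb and S100a4 (log2 fold changes -0.98, -1.27 and -1.53, adjusted p = 0.0209, 0.0233 and 0.0425), and none of these calls held without KO 2, KO 3, WT 2 or WT 3 (adjusted p = 0.0915 to 0.171). Thy1 and Dcn lay higher in every KO library than in any WT library and were not called (adjusted p = 0.134 and 0.225). The leukocyte markers Adgre1, Itgam and Tyrobp had 0 counts in all 6 libraries, and the 8 leukocyte markers together summed to 7.81 to 10.2 CPM in KO and 7.92 to 8.21 CPM in WT.

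Mmp2 and Mmp16 were lower and Mmp23 was higher in KO cells. Of the other 7 genes 6 were not called and 1 was not tested, and most of them differed widely between the libraries of the same genotype. Of the 10 genes, 9 passed the filter on low counts and were tested, and Mmp10 did not. By edgeR's quasi-likelihood test with Benjamini-Hochberg adjustment over all genes tested, 1 of the 9 was called higher and 2 were called lower at an adjusted p under 0.05. Over all genes tested, 3.55% were called higher and 3.86% lower. The KO libraries were all below the WT libraries for 3 of the 10 genes and all above them for 1, against 15.4% and 14.6% of all genes tested. The median log2 fold change was -0.63 over the 9 genes and 0.01 over all genes tested.

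**Figure D1:**
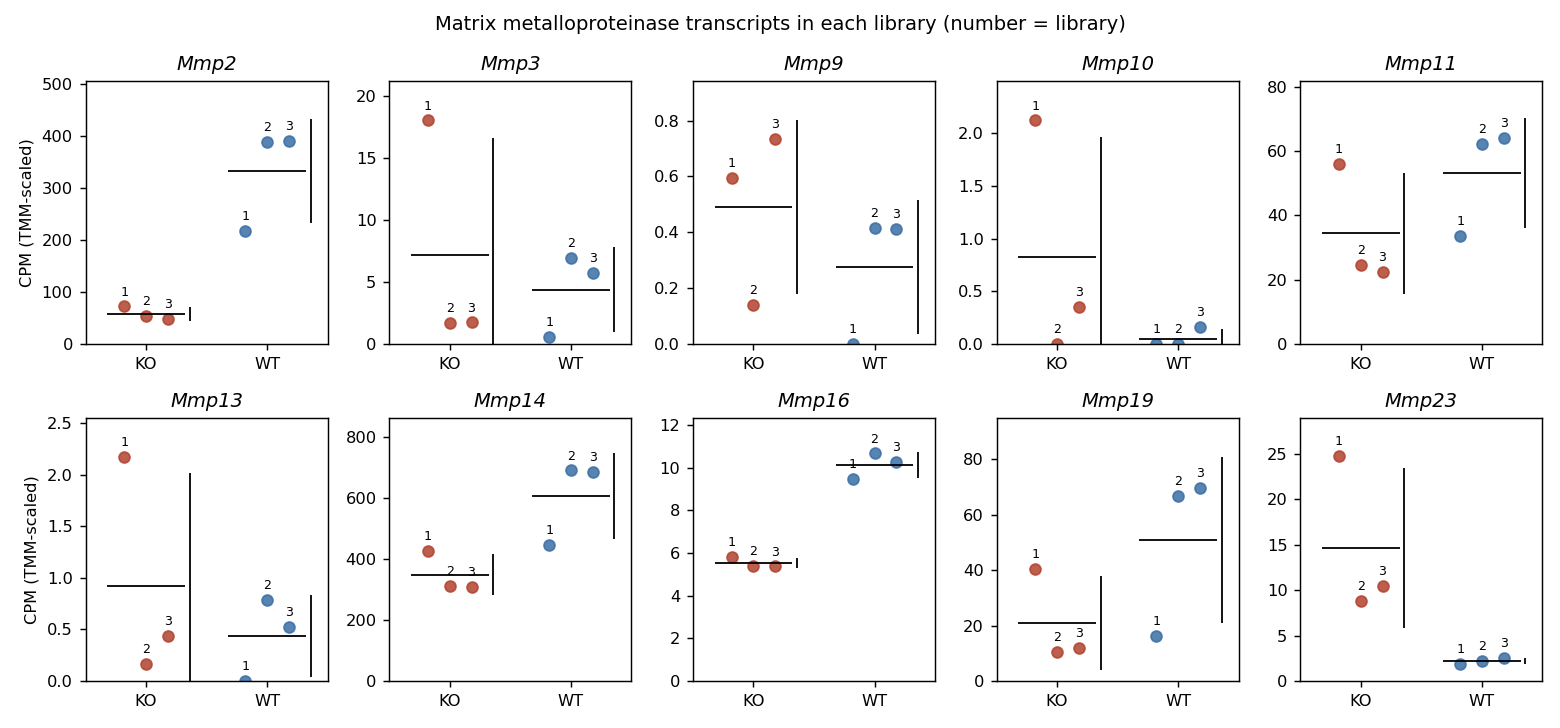
Levels of the 10 metalloproteinase transcripts in CPM (TMM-scaled, linear axes from 0), with KO libraries on the left and WT libraries on the right of each panel. Points are libraries, marked by their number, the horizontal line is the mean and the vertical line the SD (n = 3). KO and WT do not overlap for Mmp2, Mmp14, Mmp16 and Mmp23, and in most panels KO 1 lies above KO 2 and KO 3 while WT 1 lies below WT 2 and WT 3.

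Gelatinases cut denatured collagen and the type IV collagen of basement membranes. Mmp2 (gelatinase A, chromosome 8, 92827291 to 92853420, plus strand, GENCODE M21 on GRCm38) had 2807, 2310 and 1641 counts in the KO libraries and 7863, 16874 and 17073 counts in the WT libraries. Its level was 72.6, 54.2 and 48.2 CPM in KO, against 218, 390 and 392 CPM in WT. Every KO library lay below every WT library, by a wide margin even for KO 1 and WT 1, the pair of libraries nearest to each other. Mmp2 averaged 58.3 ± 12.7 CPM in KO and 333 ± 99.7 CPM in WT (SD, n = 3 each), which is 5.71-fold lower in KO (adjusted p = 0.00417, with a log2 fold change of -2.51 and an SE of 0.28). With any 1 library left out the log2 fold change was between -2.73 and -2.38 and the gene was called each time. In KO 2 and KO 3 against WT 2 and WT 3 alone it was -2.93. The 10 fibroblast markers summed to 10664, 9210 and 9108 CPM in KO and 11533, 17197 and 17712 CPM in WT, likewise lower in every KO library, and the part of this in the Mmp2 result was not tested. In RNA from whole cultures, here and below, fewer cells of a type and less RNA per cell cannot be told apart.

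Mmp9 (gelatinase B) is the other enzyme of this group and is best known from leukocytes. It was near the limit of detection, with 23, 6 and 25 counts in KO and 0, 18 and 18 counts in WT. The groups overlapped, and no difference was detectable at this depth (log2 fold change 0.79, SE 1.13, adjusted p = 0.745). Of the leukocyte markers, Ptprc had 0 counts in every library but WT 2, where it had 7, and Csf1r had 0, 0 and 6 counts in KO and 10, 12 and 11 counts in WT. Cd14 and Cd68 gave most of the summed leukocyte level given above, and the part of these markers in the Mmp9 result was not tested.

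The membrane-type enzymes MMP14 and MMP16 are anchored in the plasma membrane and cut matrix next to the cell. Mmp14 (chromosome 14, 54431612 to 54445364, plus strand) had 425.5, 312 and 309 CPM in KO, against 446, 691 and 687 CPM in WT. No library of one group reached the other, but KO 1 and WT 1 were close to each other. The mean was 349 ± 66.3 CPM in KO and 608 ± 140 CPM in WT (SD, n = 3 each), with a log2 fold change of -0.80 (SE 0.22) that was not called (adjusted p = 0.0823). Mmp14 was called lower by DESeq2 (adjusted p = 0.00976, in a test that called 7.85% of genes higher and 7.96% lower) and without WT 1 (log2 fold change -0.97, adjusted p = 0.0331). It was also called lower without KO 1 and WT 1 together (-1.15, adjusted p = 8.4e-09), where 24.6% of all genes were called lower. Mmp14 was not called by limma-voom (adjusted p = 0.0791) or with library sizes alone as scaling (0.151). Nor was it called without KO 1 (0.0525), KO 2 (0.26), KO 3 (0.276), WT 2 (0.257) or WT 3 (0.273).

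Mmp16 (chromosome 4, 17852893 to 18119145, plus strand) varied little within each genotype. It had 5.82, 5.40 and 5.37 CPM in KO and 9.49, 10.7 and 10.3 CPM in WT. The groups were clearly apart, and KO 1 and WT 1 lay with the other libraries of their genotype. The mean was 5.53 ± 0.252 CPM in KO and 10.1 ± 0.604 CPM in WT (SD, n = 3 each), which is 1.83-fold lower in KO (adjusted p = 0.0289, with a log2 fold change of -0.88 and an SE of 0.17). The fold change hardly moved when 1 library was left out (-0.92 to -0.84), but the call was lost without KO 2 (adjusted p = 0.124), KO 3 (0.13), WT 2 (0.138) or WT 3 (0.128), and with library sizes alone as scaling (0.0561).

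Mmp23 was the gene of the family that rose. Its product is unusual among metalloproteinases, since it lacks the hemopexin domain with which most of the others bind substrates and is anchored in the membrane through its propeptide. Mmp23 (chromosome 4, 155650655 to 155653384, minus strand) had 956, 374 and 355 counts in KO and 67, 94 and 109 counts in WT, which is 24.7, 8.77 and 10.4 CPM in KO against 1.86, 2.17 and 2.50 CPM in WT. The lowest KO library was above the highest WT library, and KO 1 was the highest of all. The mean was 14.6 ± 8.77 CPM in KO and 2.18 ± 0.322 CPM in WT (SD, n = 3 each), a 6.71-fold higher level (log2 fold change 2.75, SE 0.44, adjusted p = 0.0158). Without KO 1 the log2 fold change was 2.13 (adjusted p = 0.00803), and without KO 1 and WT 1 it was 2.03 (adjusted p = 1.35e-05). The call was lost without WT 2 (adjusted p = 0.0771) or WT 3 (0.0747). The 6 epithelial markers summed to 115, 64.2 and 59.7 CPM in KO and 2.33, 2.66 and 2.59 CPM in WT. In KO almost all of the sum was Krt18, and Krt5 and Krt14 were at 0 in every library. Krt8 and Krt18 were called higher (adjusted p = 0.0109 and 0.000753). Cdh1 and Epcam were low, overlapped between the groups and were not called (log2 fold changes -1.35 and 0.07, adjusted p = 0.632 and 0.968). The part of these markers in the Mmp23 result was not tested.

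Set on a scale of CPM per kb of exon, on which the genes can be compared with each other, Mmp14 and Mmp2 made up most of the family RNA in both genotypes. In KO cells Mmp14 stood at 58.5 ± 11.1 CPM per kb and Mmp2 at 17.3 ± 3.77, whereas in WT cells Mmp14 stood at 102 ± 23.6 and Mmp2 at 98.9 ± 29.6 (SD, n = 3 each). In KO the next places were taken by Mmp11 (12.4 ± 6.76 CPM per kb), Mmp23 (6.26 ± 3.75), Mmp19 (5.93 ± 4.77) and Mmp3 (3.98 ± 5.22). Neighbours in this order overlapped in range from Mmp2 to Mmp3. Within each KO library, however, Mmp2 was above Mmp11, Mmp11 above Mmp23 and Mmp19 above Mmp3, while Mmp23 and Mmp19 changed places between libraries. In WT the places after Mmp2 were taken by Mmp11 (19.2 ± 6.14), Mmp19 (14.4 ± 8.50), Mmp3 (2.45 ± 1.88), Mmp16 (1.17 ± 0.0697) and Mmp23 (0.93 ± 0.137). There the ranges overlapped for Mmp14 and Mmp2, for Mmp11 and Mmp19 and for Mmp3 and Mmp16, but not for the other neighbours in the order. Within each WT library Mmp11 was above Mmp19, while the other overlapping neighbours changed places between libraries. By their means, Mmp9, Mmp10 and Mmp13 were the lowest 3 of the 10 in both genotypes. In KO 1, however, Mmp10 (1.23 CPM per kb) and Mmp13 (0.813) were above Mmp16 (0.672).

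The make-up of the family RNA differed in the shares of Mmp2, Mmp14, Mmp23 and Mmp11. The scarce Mmp9 had shares of 0.114%, 0.0464% and 0.246% in KO and 0%, 0.0421% and 0.0417% in WT. The narrow gap between its groups rests on 6 counts in KO 2, and its CPM values overlapped. The shares within a library add up to a whole, so a higher share can go with a lower level, as for Mmp14 in KO. On this length-scaled level Mmp2 was 14.6%, 18.7% and 17.0% of the sum of the 10 genes in KO, against 40.9%, 41.4% and 41.5% in WT. The groups were far apart, and WT 1 had a share close to that of WT 2 and WT 3 although its Mmp2 level was lower. Mmp14 was 48.2%, 61.1% and 61.5% of the sum in KO, against 47.2%, 41.5% and 41.1% in WT, with KO 1 close to WT 1. Mmp23 was 7.14%, 4.37% and 5.29% of the sum in KO, against 0.501%, 0.332% and 0.382% in WT. Mmp11 was 13.6%, 10.4% and 9.62% of the sum in KO, against 7.63%, 8.01% and 8.22% in WT. The sum itself was 148, 85.7 and 84.3 CPM per kb in KO, against 158, 279 and 280.1 CPM per kb in WT, so KO 1 and WT 1 were close to each other in amount and in the share of Mmp14 but not in the shares of Mmp2 and Mmp23.

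**Figure D2:**
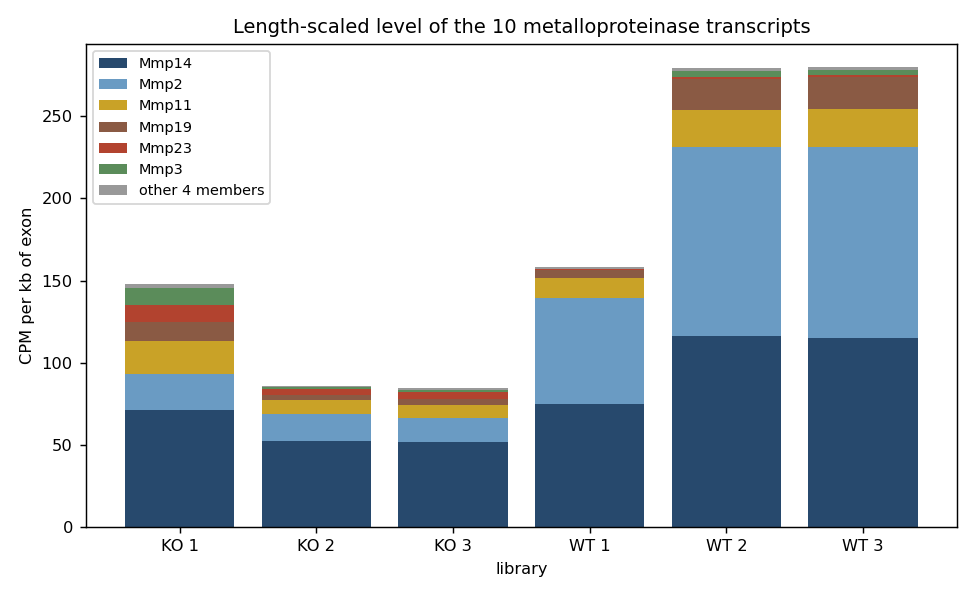
Length-scaled level (CPM per kb of exon) of the 10 metalloproteinase transcripts, stacked for each library, with KO libraries left of WT libraries. The bars sum to 84.3 to 148 CPM per kb in KO and 158 to 280.1 in WT, and the Mmp2 segment is the one that differs most in share between the genotypes.

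The ratio of Mmp2 to Mmp14, the enzyme to its activator, does not depend on how libraries are scaled. Per kb it was 0.302, 0.307 and 0.276 in KO and 0.865, 0.998 and 1.01 in WT. The 3 KO values lay close together, KO 1 included, and far below the WT values. The mean was 0.295 ± 0.0167 in KO and 0.957 ± 0.0798 in WT (SD, n = 3 each; exact permutation test, two-sided, p = 0.1, the smallest that 3 against 3 can give, for each of the 3 ratios computed). Counts of Mmp2 per count of Timp2, the inhibitor that takes part in this activation, were 0.136, 0.0891 and 0.0806 in KO and 0.406, 0.688 and 0.666 in WT. Counts of Mmp14 per count of Timp2 were 0.797, 0.513 and 0.517 in KO and 0.829, 1.22 and 1.17 in WT. Both sets of ratios kept the genotypes apart, the last by a small gap between KO 1 and WT 1.

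Stromelysins cut proteoglycans and activate other metalloproteinases, and collagenases open the triple helix of fibrillar collagen. Mmp3 (stromelysin 1), Mmp10 (stromelysin 2) and Mmp13 (collagenase 3) lie in the cluster of 10 metalloproteinase genes that spans 427.1 kb of chromosome 9. All of them were low or at 0 in most libraries and highest in KO 1.

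Mmp3 (7445822 to 7455975, plus strand) had 697, 73 and 60 counts in KO, against 20, 301 and 249 counts in WT, or 18.0, 1.71 and 1.76 CPM in KO and 0.555, 6.95 and 5.71 CPM in WT. KO 1 was 10.4 times the mean of KO 2 and KO 3, and the mean of WT 2 and WT 3 was 11.4 times WT 1. The groups thus overlapped, KO 1 lying above every WT library and KO 2 and KO 3 below WT 2 and WT 3. The log2 fold change over all libraries was 0.70 (SE 1.16, adjusted p = 0.783). Its direction turned without KO 1 (-1.35, adjusted p = 0.407), and in KO 2 and KO 3 against WT 2 and WT 3 Mmp3 was called lower (-1.87, adjusted p = 9.87e-05).

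Mmp13 (7272514 to 7283331, plus strand) had 84, 7 and 15 counts in KO, against 0, 34 and 23 counts in WT. As for Mmp3, KO 1 was the highest and WT 1 the lowest library. The log2 fold change was 1.06 (SE 1.33, adjusted p = 0.701), and it turned to -0.56 without KO 1 and to -1.13 without KO 1 and WT 1, without a call in either. Mmp10 (7502352 to 7510240, plus strand) had 82, 0 and 12 counts in KO, against 0, 0 and 7 counts in WT, and was too low for the filter. Without a filter it was not called (log2 fold change 3.85, adjusted p = 0.38), and most of its reads came from KO 1. Mmp3 and Mmp10 are close relatives, with 81.9% identity over 1347 aligned bases of transcript, and the counting rule for reads that match both is not given in the sources used here.

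Since KO 1 was the highest library for all 3 of these cluster genes, and WT 1 the lowest for Mmp3 and Mmp13, the stretches upstream of their starts are shown. They are the 250 bases before each RefSeq start on GRCm38.p6, all on the plus strand, written 5′ to 3′. The first stretch in capitals, TGACTCA or its reverse complement TGAGTCA, is the sequence bound by AP-1, the dimer of Fos and Jun proteins, and the second, TATAAA, is the TATA box sequence.
Mmp3, chr9:7445572-7445821: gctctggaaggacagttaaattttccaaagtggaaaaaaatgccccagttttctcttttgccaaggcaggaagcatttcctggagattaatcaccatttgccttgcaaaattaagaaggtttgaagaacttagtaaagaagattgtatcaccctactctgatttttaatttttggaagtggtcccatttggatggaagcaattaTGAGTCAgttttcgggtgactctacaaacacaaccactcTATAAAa
Mmp10, chr9:7502092-7502341: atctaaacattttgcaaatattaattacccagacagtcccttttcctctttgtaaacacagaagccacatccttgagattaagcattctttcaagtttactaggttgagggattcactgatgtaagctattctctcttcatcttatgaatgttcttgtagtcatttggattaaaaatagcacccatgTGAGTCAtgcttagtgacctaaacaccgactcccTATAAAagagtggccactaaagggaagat
Mmp13, chr9:7272264-7272513: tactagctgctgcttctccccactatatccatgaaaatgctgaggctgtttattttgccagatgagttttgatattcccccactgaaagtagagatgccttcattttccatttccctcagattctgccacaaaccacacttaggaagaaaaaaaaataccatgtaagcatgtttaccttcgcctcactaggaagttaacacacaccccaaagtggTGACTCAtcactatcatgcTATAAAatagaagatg

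All 3 windows held the AP-1 sequence followed by the TATA box sequence, with the AP-1 sequence beginning 46, 63 and 35 bases before the start of Mmp3, Mmp10 and Mmp13. The TATA box sequence began at positions -7, -29 and -16 relative to these starts. Distances are to the RefSeq start, and the start used in these cells was not measured. Over all 32851 RefSeq windows of this length, 4.46% held TGACTCA on either strand, 7.59% held TATAAA on the gene's strand and 0.481% held both. In the whole cluster, 7 of 10 genes had TGACTCA in a window, namely Mmp1a, Mmp1b, Mmp3, Mmp7, Mmp10, Mmp12 and Mmp13. None of the 8 other family genes with a window had it, among them Mmp11, Mmp14 and Mmp23. A match describes these letters and shows no binding. Mmp2, Mmp9, Mmp16 and Mmp19 were not matched in the table.

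For Mmp11 and Mmp19 too, KO 1 was the highest KO library and WT 1 the lowest WT library, but KO 1 stayed below WT 2 and WT 3. Mmp11 (stromelysin 3, which is activated inside the cell by furin; chromosome 10, 75923222 to 75936496, minus strand) had 56.1, 24.7 and 22.5 CPM in KO, against 33.6, 62.1 and 64.0 CPM in WT. KO 1 lay with WT 2 and WT 3, and WT 1 lay nearer to KO 2 and KO 3. The log2 fold change was -0.63 (SE 0.41, adjusted p = 0.432), and -1.42 (adjusted p = 1.58e-07) without KO 1 and WT 1.

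Mmp19 (chromosome 10, 128790910 to 128800824, plus strand), whose product cuts basement membrane proteins, had 40.4, 10.5 and 11.9 CPM in KO, against 16.4, 66.9 and 69.8 CPM in WT. KO 1 was 3.60 times the mean of KO 2 and KO 3, and the mean of WT 2 and WT 3 was 4.18 times WT 1, so WT 1 fell inside the range of KO. The log2 fold change was -1.28 (SE 0.70, adjusted p = 0.346), and -2.61 (adjusted p = 2.71e-09) without KO 1 and WT 1. Both genes overlap a gene on the opposite strand. Mmp19 shares 789 of its 3533 exon bases with Tmem198b, which had 39.8, 27.4 and 26.6 CPM in KO and 42.0, 48.0 and 44.4 CPM in WT. Mmp11 shares 155 of its 2778 with Chchd10, at 2.09 to 3.55 CPM in KO and 0.333 to 0.849 CPM in WT. The kit keeps strand, but whether the counting used it is not given in the sources used here, so reads in the shared stretches cannot be told apart.

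Counted after the values were seen, 8 of the 10 genes had KO 1 above both other KO libraries and WT 1 below both other WT libraries, the exceptions being Mmp9 and Mmp10. The opposite order was found for 0 of the 10. Over all genes tested, 32.1% had the first order and 29.4% the opposite one. The size of the departure ranged widely. On the scale of log2(CPM + 0.1), KO 1 exceeded the mean of KO 2 and KO 3 by 3.30 for Mmp3, by 1.84 for Mmp19 and by 0.11 for Mmp16. WT 1 differed from the mean of WT 2 and WT 3 by -3.29 for Mmp3, by -2.05 for Mmp19 and by -0.14 for Mmp16.

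**Figure D3:**
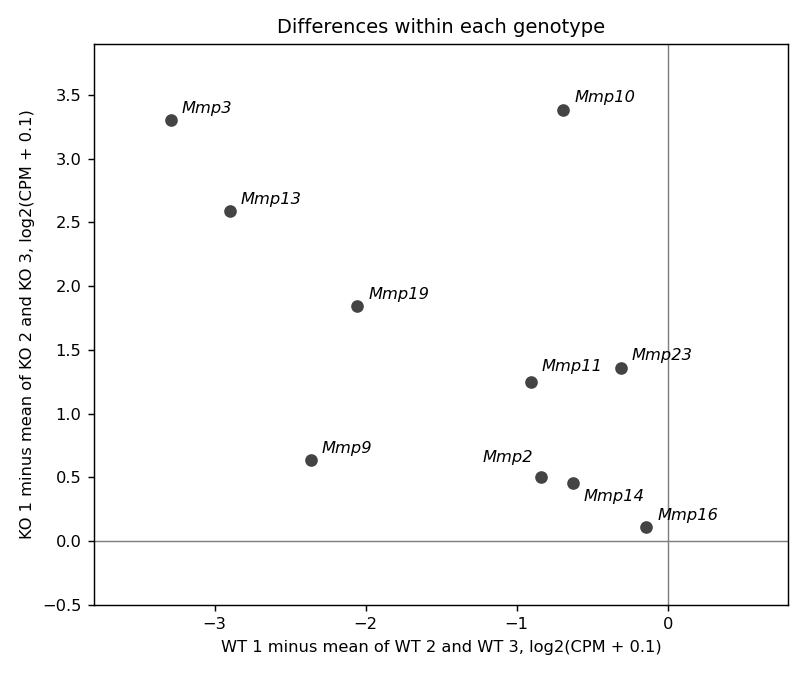
Differences within each genotype for the 10 genes: KO 1 minus the mean of KO 2 and KO 3 (vertical) against WT 1 minus the mean of WT 2 and WT 3 (horizontal), both on the log2(CPM + 0.1) scale, 1 point per gene. All points lie in the upper left corner of the plot, from Mmp16 near the origin to Mmp3 at -3.29 and 3.30.

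Without KO 1 and WT 1, edgeR called 6 of 9 tested genes lower (Mmp2, Mmp3, Mmp11, Mmp14, Mmp16 and Mmp19) and Mmp23 higher. This has to be read against the share of all genes called in that setting, 24.6% lower and 23.3% higher. The libraries left out were those furthest from their groups, so the p-values of that setting rest on a spread made smaller by the choice. In that comparison of 2 against 2, genotype cannot be told apart from whatever sets KO 2 and KO 3 or WT 2 and WT 3 apart from the libraries left out.

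**Figure D4:**
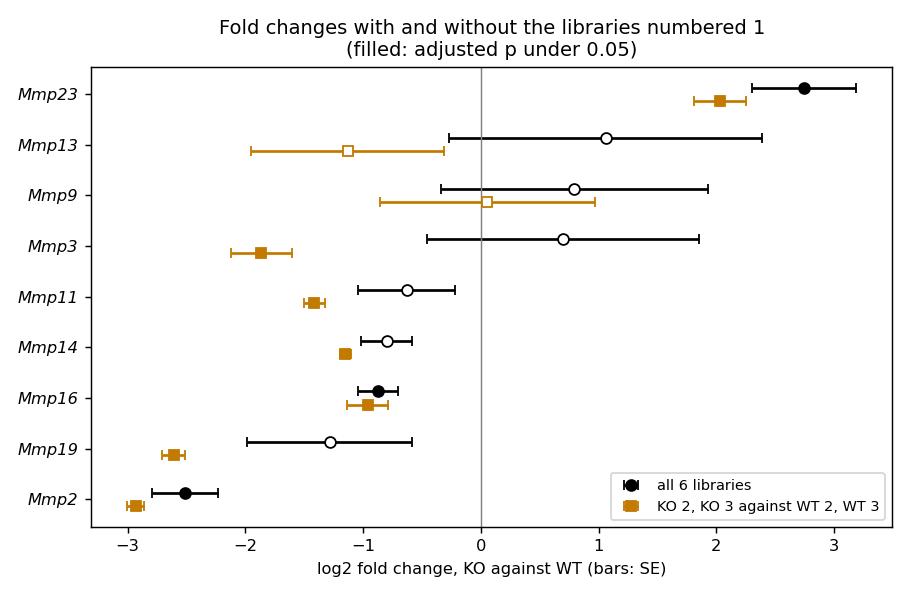
Log2 fold changes, KO against WT, of the 9 tested genes, with bars for the SE. Black circles use all 6 libraries and orange squares use KO 2 and KO 3 against WT 2 and WT 3, filled where the adjusted p was under 0.05. Mmp2, Mmp16 and Mmp23 are filled in both, and Mmp3 and Mmp13 change side.

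The 13 other metalloproteinase genes were low. Of them, 5 had 0 counts in every library (Mmp7, Mmp8, Mmp20, Mmp21 and Mmp27) and 5 were tested, with 0 called by edgeR, DESeq2 or limma-voom over all 6 libraries. Without KO 1 and WT 1, edgeR called 1 of 4 tested, Mmp28, lower (log2 fold change -0.95, adjusted p = 0.0388), where 24.6% of all genes were called lower. Mmp28, an enzyme of epithelia among other tissues, had 1.60 to 5.35 CPM in KO and 2.50 to 4.99 CPM in WT, and the membrane-type Mmp15 had 0.938 to 4.09 CPM in KO and 1.53 to 3.12 CPM in WT. Only Mmp17, a further membrane-bound enzyme, had groups that did not overlap, at 0.352 to 0.61 CPM in KO and 0.901 to 1.26 CPM in WT. It had 16, 26 and 12 counts in KO and 37, 39 and 55 in WT, and was not called (log2 fold change -1.20, adjusted p = 0.166). Of all genes tested, 15.4% had every KO library below every WT library.

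Of 12 inhibitors and related matrix genes, 7 were tested and 2 fell, against 3.86% of all genes tested. Timp2 was high and even, with 534, 608 and 598 CPM in KO and 537, 567 and 588 CPM in WT (log2 fold change 0.04, SE 0.11, adjusted p = 0.877). Timp1 had 112, 105 and 107 CPM in KO and 137, 118 and 106 CPM in WT (log2 fold change -0.15, SE 0.12, adjusted p = 0.514). Timp3, the inhibitor that is held in the matrix, fell: it had 68.4, 75.7 and 72.2 CPM in KO, against 123, 93.1 and 105 CPM in WT. The groups did not overlap (log2 fold change -0.57, SE 0.13, adjusted p = 0.0451), but the call was lost with any 1 of the 6 libraries left out (adjusted p = 0.0592 to 0.169). Reck, a membrane-bound inhibitor, had 9.60, 7.04 and 5.43 CPM in KO and 3.44, 7.90 and 6.31 CPM in WT, with overlap and without a call (adjusted p = 0.668). Pcolce, which enhances procollagen processing, fell (log2 fold change -0.83, SE 0.14, adjusted p = 0.0205), and was not called without KO 2, KO 3, WT 2 or WT 3 (adjusted p = 0.0952 to 0.101).

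Of 16 activators and docking proteins, 11 were tested, and 1 fell, where 3.86% of all genes tested were called lower. This was Plau, the urokinase that starts the plasmin cascade in which several precursors are cut, with 34.4, 28.5 and 27.7 CPM in KO against 60.1, 76.1 and 71.9 CPM in WT. All KO libraries were below all WT libraries, with little spread (log2 fold change -1.20, SE 0.14, adjusted p = 0.00542). Furin, which cuts the propeptides of MMP11 and MMP14, had 143, 142 and 142 CPM in KO and 162, 188 and 193 CPM in WT and was not called (log2 fold change -0.34, adjusted p = 0.115).

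Of 14 inducers and their receptors, 11 were tested, and 2 were called higher, against 3.55% of all genes tested. These were Pdgfb (log2 fold change 1.67, SE 0.16, adjusted p = 0.00253) and Lif (1.55, SE 0.21, adjusted p = 0.00775), and Lif was not called without WT 3 (adjusted p = 0.0525). The cytokines Il1a and Il1b, which induce stromelysins and collagenases in fibroblasts, had 0 counts in every library. Tnf, another cytokine of the list, had 15 counts in KO 1 and 0 in every other library, and was not tested.

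Of 18 transcription factors known to act on metalloproteinase promoters, all were tested and 1 rose, where 3.55% of all genes tested were called higher. This was the AP-1 subunit Fosl2, with 252, 286 and 279 CPM in KO against 172, 174 and 184 CPM in WT. The groups were apart, and KO 1 was not the highest KO library (log2 fold change 0.62, SE 0.10, adjusted p = 0.0169; not called without KO 2, KO 3, WT 2 or WT 3, adjusted p = 0.0709 to 0.0985). Other AP-1 subunits differed within the genotypes, in both directions. Fosl1 had 18.5, 45.4 and 59.8 CPM in KO and 47.5, 14.1 and 11.5 CPM in WT, and Jun had 104, 144 and 154 CPM in KO and 158, 92.5 and 83.6 CPM in WT. For both, KO 1 was the lowest KO library and WT 1 the highest WT library, the opposite of the order for Mmp3. Fos and Junb had KO 1 as the highest KO library and WT 1 as the lowest WT library, as Mmp3 did, at 8.48, 5.28 and 3.61 CPM (Fos) and 160, 111 and 129 CPM (Junb) in KO, and at 4.11, 8.73 and 5.94 CPM (Fos) and 94.5, 126 and 112 CPM (Junb) in WT. Of the 18 factors, 5 had the order of Mmp3 within both genotypes and 7 the opposite one, shares near the 32.1% and 29.4% of all genes tested. The part of these factors in the metalloproteinase levels was not tested.

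Of 18 substrates, 17 were tested, 7 fell and 2 rose, against 3.86% lower and 3.55% higher over all genes tested. Col4a1 and Col4a2, the type IV collagen chains cut by gelatinases, fell (log2 fold changes -1.81 and -1.55, SE 0.16 and 0.13, adjusted p = 0.00183 and 0.00158), as did the proteoglycans Vcan (-2.61, SE 0.22) and Bgn (-1.24, SE 0.16) and the collagen genes Col1a1 (-0.98, SE 0.17) and Col5a1 (-0.75, SE 0.13). Col1a1 and Col5a1 were not called without KO 2, KO 3, WT 2 or WT 3 (adjusted p = 0.0658 to 0.104). The growth factor binding protein Igfbp5 fell by 5.17 on the log2 scale (SE 0.67), while without KO 1 its log2 fold change was -6.22, and Igfbp3 rose (2.13, SE 0.20). Acan, the cartilage proteoglycan cut by several metalloproteinases, had 5.33, 11.0 and 5.82 CPM in KO and 0.277, 0 and 0.459 CPM in WT. It was called higher (log2 fold change 4.89, SE 0.96, adjusted p = 0.0292), but not without KO 2 (4.50, adjusted p = 0.115), KO 3 (5.04, 0.0925), WT 1 (4.99, 0.06) or WT 3 (5.77, 0.0821). The list median was -0.70, against 0.01 over all genes tested.

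**Figure D5:**
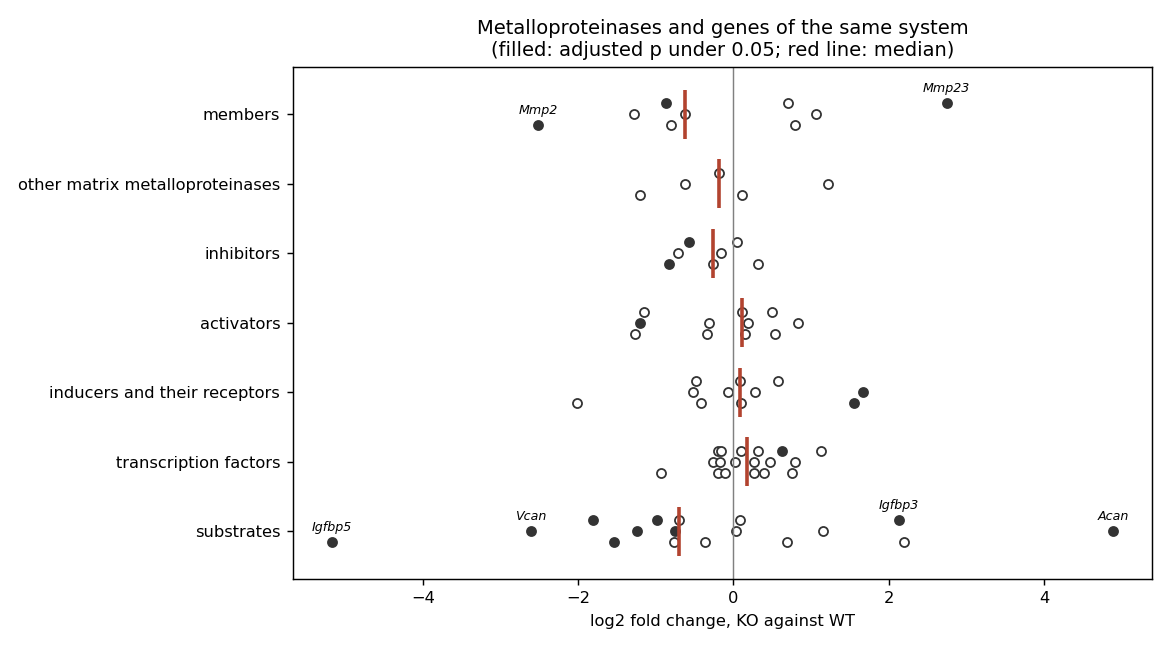
Log2 fold changes, KO against WT, of the tested genes of each list, 1 point per gene, filled where the adjusted p was under 0.05, with a red line at the list median. The metalloproteinases (median -0.63) and the substrates (-0.70) have the lowest medians, and the inhibitors, activators, inducers and transcription factors have medians between -0.27 and 0.18.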

How the data were processed

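Each deposited file holds raw read counts of 1 library by gene symbol, per the file headers. The submitters' processing notes list Trim Galore 0.6.6, HISAT2 2.2.1 and a human build, although the symbols are those of mouse. Not given in the sources used here are the counting program, its annotation and its strand setting. Groups come from the sample titles, since the genotype entries of KO 2 and KO 3 name other numbers after PME. Genes and lists were chosen with earlier results of these data known, and only called list genes, Timp1, Timp2, Timp3 and Reck were to be named. Others named were chosen after their values were seen.

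The test was edgeR 4.0.16 under R 4.3.3 (TMM factors, filterByExpr, robust quasi-likelihood fit), with p-values adjusted by Benjamini-Hochberg over 15223 genes and called under 0.05. The SE is the log2 fold change divided by the square root of F. Alternatives were DESeq2 1.42.0, limma-voom (limma 3.58.1), other scaling factors and filters, the replicate number as a block, and libraries left out. Exon lengths and positions are those of GENCODE M21 on GRCm38, which holds 92.9% of the symbols and all 10 metalloproteinases. Upstream sequences are from RefSeq on GRCm38.p6, matched by symbol for 6 of the 10. Transcripts were aligned with blastn 2.17.0. No 2 libraries were alike within sampling noise (chi-square per degree of freedom at least 12.7).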

Additional observations from a re-analysis of the deposited data

How the results depend on the processing

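Mmp2 was called lower and Mmp23 higher under every scaling and filter tried, with DESeq2 and with limma-voom. The number of metalloproteinases called higher was 0 to 1 and the number called lower 1 to 3 with 1 library left out. Over all genes, fits with 1 library left out called 170 to 556 higher and 162 to 660 lower of 15532 to 15866 tested. The number called lower was 1 with library sizes alone as scaling and 6 without KO 1 and WT 1, a setting with 2 libraries per group. Of 69 tested genes of the other lists, 5 were called higher with all libraries (3.55% of all genes), 9 with DESeq2 (7.85%), 16 of 68 without KO 1 and WT 1 (23.3%) and 2 to 8 with 1 library left out. Called lower were 10 with all libraries (3.86% of all genes), 15 with DESeq2 (7.96%), 26 of 68 without KO 1 and WT 1 (24.6%) and 6 to 12 with 1 library left out. The direction of Mmp3 turned with the replicate block (-0.32), without KO 1 (-1.35) and without KO 1 and WT 1 (-1.87), that of Mmp13 without KO 1 (-0.56) and without KO 1 and WT 1 (-1.13), and that of Reck without KO 1 and WT 1 (-0.19). With 1 library left out the log2 fold change ranged from -1.35 to 1.19 for Mmp3 and from -0.56 to 1.77 for Mmp13. The cause was not tested. The order with KO 1 high and WT 1 low held for 8 genes under every scaling tried.

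Deviations from the group means correlated at -0.55, -0.34 and -0.27 over genes between libraries of the same number. Between libraries of different numbers the values ranged from -0.255 to 0.434. KO 1 and WT 1 stood furthest from their groups, and deviations from a mean of 3 are tied to each other. These correlations therefore cannot show whether libraries of the same number were handled together. With the replicate block 0 metalloproteinases and 0 list genes were called in either direction, and 3 genes were called higher and 5 lower over all genes tested. Mmp9, Mmp10 and Mmp13 rest on at most 84 counts per library, so only large differences could be detected for them.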
